A study of Mus musculus with 8 samples.

Results

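The subject is a difference of differences: how far the contrast between CD8 T cells that had taken up stromal mitochondria and those that had not was altered once the cells lay in a tumor. It rests on 12 of the 18 hashtagged samples of the study, and the 6 spleen samples were not used. Mouse CD8 T cells from 3 donor mice were activated and grown with bone marrow stromal cells (BMSCs) whose mitochondria carried dsRed, a red fluorescent protein. Sorting then separated the dsRed-bearing cells, called MitoPositive, from the dsRed-free ones, called MitoNegative. One portion was sequenced at once (d0, called culture here), and another was given to B6 mice bearing B16KVP tumors and taken back from the tumor 7 days later (d7). Every group holds 3 samples, 1 per donor: culture MitoPositive, culture MitoNegative, tumor MitoPositive and tumor MitoNegative. All of these cells had been activated and cultured with BMSCs, the MitoNegative ones included. At d7 the names give the dsRed state at transfer, not that at recovery. The deposited sample list gives the arms of a donor different recipient mice at d7, so an effect of the recipients cannot be told apart from an effect of the arm. The age and genotype of the donors are not given in the sources used here.

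Mitochondria can pass from stromal cells to lymphocytes through thin membrane bridges, and the receiving cell then holds organelles of foreign origin beside its own. Activated CD8 T cells divide quickly and differentiate along a range, from cells that keep memory and self-renewal genes such as Tcf7 and Myb to effector cells that make interferon gamma, granzymes and chemokines. In a tumor, repeated antigen contact drives these effector genes together with inhibitory receptors such as Pdcd1.

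Each cell was placed in its arm by the barcode of a hashtag antibody, and 6 barcodes were used. In culture the odd hashtags marked MitoPositive and the even ones MitoNegative cells. In the tumor H3 marked MitoPositive and H4 MitoNegative cells. They are printed since the reading of every contrast depends on this map.
H1: acccaccagtaagac
H2: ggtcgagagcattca
H3: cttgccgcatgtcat
H4: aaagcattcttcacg
H5: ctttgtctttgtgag
H6: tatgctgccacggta
The labels disagree on the culture map. The series design and the deposited list give odd against even numbers, which was used, and the extraction protocol gives H1 to H3 against H4 to H6. With the protocol's map no gene passed for the difference in edgeR, where 1037 genes had an unadjusted p under 0.05. The same map left 0 genes called in culture, with 191 at an unadjusted p under 0.05.

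A total of 7679 cells and 78577081 UMIs entered the sums. Culture samples held 823 to 1025 cells, MitoPositive tumor samples 172 to 995 and MitoNegative tumor samples 30, 85 and 116. Total UMIs ran from 496485, in the MitoNegative tumor sample of donor 1, to 16444035. CD8 identity was checked by its markers: a Cd3 UMI was found in 95.7% to 100% of cells of each sample and a Cd8 UMI in 92.9% to 100%. A single UMI is a low bar. In the sample at 95.7%, MitoNegative tumor of donor 3, 21.6% of cells also held 2 or more UMIs of other cell types' defining markers. A summed level does not tell a change in the share of cells from a change per cell. Between 5 and 18 cell barcodes of each library also occurred in another library.

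RNA of other cell types was not spread evenly over the arms in the tumor. Summed levels are given as plain CPM, the UMIs of the genes per 1000000 UMIs of the sample, without further scaling. The summed level of 5 melanoma genes (Dct, Tyrp1, Tyr, Mlana and Pmel) was 1414 plain CPM in the MitoNegative sample of donor 3 and 6.0 and 4.0 in those of donors 1 and 2. MitoPositive tumor samples held 0.79, 55.4 and 1.7 plain CPM for donors 1, 2 and 3. Macrophage genes (Lyz2, C1qa, C1qb, C1qc, Csf1r and Mrc1) summed to 185 plain CPM in the MitoNegative sample of donor 2, against 13.4 to 23.2 in the MitoPositive samples. MHC class II genes summed to 806 in that same sample and to 65.1 to 145 in the other tumor samples. In culture the macrophage genes stood at 0.18 to 1.70 plain CPM. Over all 26 defining markers of other cell types, the sums were 60.3 to 146 in MitoPositive and 256 to 1918 in MitoNegative tumor samples, with none of the 26 at 0 over either group. In culture the sums were 5.24 to 13.5, and 13 of the 26 were at 0 over each group. Results are therefore given also without the cells that held 2 or more UMIs of these markers, an alternative chosen after the data were seen. Such cells made up 10.7% to 17.1% of MitoPositive and 16.7% to 23.5% of MitoNegative tumor cells, against 0% to 0.976% in culture.

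**Figure D1:**
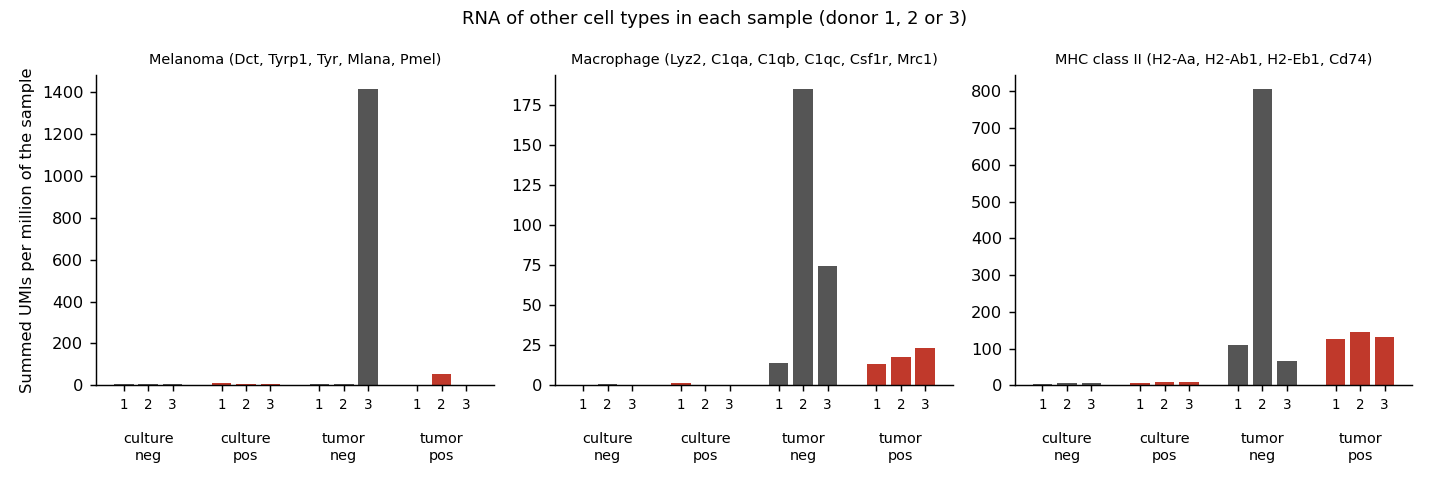
Summed level in plain CPM (vertical axis) of melanoma, macrophage and MHC class II genes in each of the 12 samples; 1 bar is 1 sample, red for MitoPositive and grey for MitoNegative, with the donor number under it. The melanoma bar of the MitoNegative tumor sample of donor 3 reaches 1414, and the MHC class II bar of donor 2 reaches 806.

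The arm effect, MitoPositive minus MitoNegative on the log2 scale, was fitted in culture and in the tumor, and its difference (tumor minus culture) was tested directly. A positive difference means that the MitoPositive arm stood relatively higher in the tumor than in culture. Of 12168 genes tested, 141 (1.16%) passed an adjusted p of 0.05 in edgeR: 50 were higher (0.411%) and 91 lower (0.748%). In 134 of the 141 the difference had the same sign in each of the 3 donors. Over all genes tested, 17.5% had a difference above 0 in all 3 donors and 13.4% below 0 in all 3. The arm effect itself passed for 435 genes in culture (3.57%), 320 higher (2.63%) and 115 lower (0.945%), and for 199 in the tumor (1.64%), 93 higher (0.764%) and 106 lower (0.871%). With the donor as a block at both times the tumor count was 115, and that of the difference 133. Counts of called list members given below are to be read beside these shares over all genes.

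In all, 16 genes passed in both culture and the tumor, where 435 and 199 were called. Of these, 6 had the same and 10 the opposite sign. Those 10 are all among the 141, which was close to fixed in advance, since opposite effects add up in the difference. Of the other 131, 54 had passed in culture alone, 56 in the tumor alone and 21 in neither. Over all genes tested, the tumor effect and the culture effect had a Pearson correlation of -0.05 and a Spearman correlation of 0.01, and 50.9% of genes had the same sign. This is a description across genes, which are not independent, and the tumor effects are less precise: the median standard error was 0.22 in the tumor, 0.15 in culture and 0.27 for the difference.

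**Figure D2:**
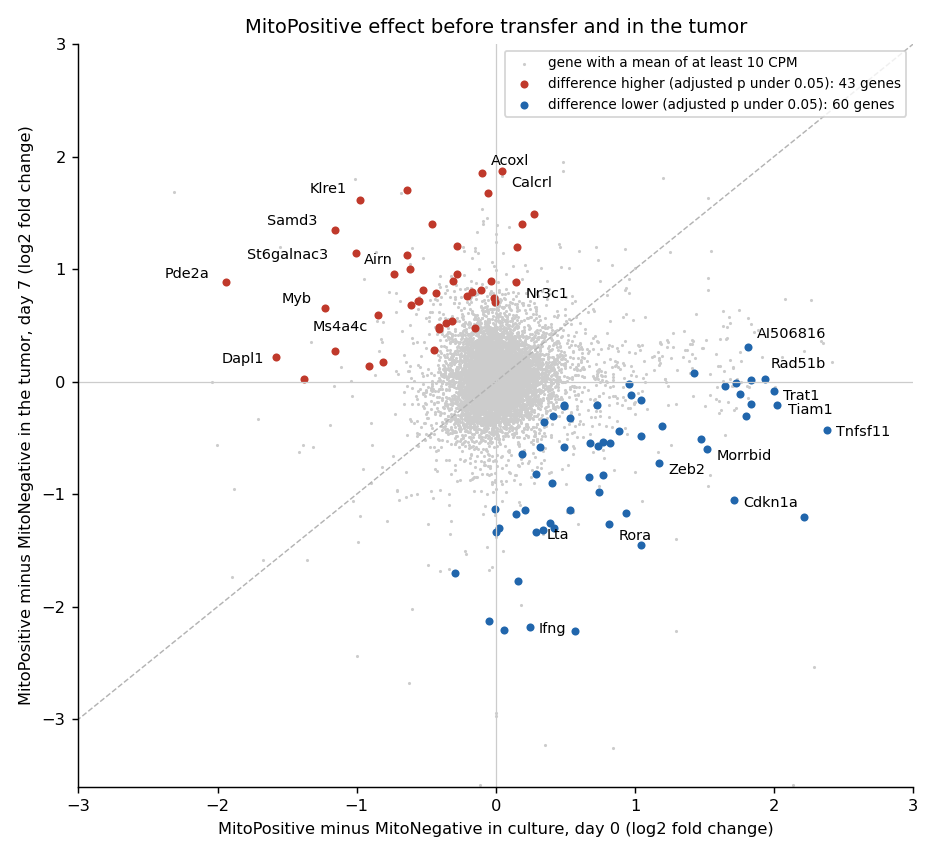
The arm effect in culture (horizontal, log2 fold change) against the arm effect in the tumor (vertical, log2 fold change) for genes with a mean of at least 10 CPM; red and blue points are genes whose difference passed, higher or lower, and the dashed line marks equal effects. Klre1, St6galnac3 and Airn lie in the upper left and Rora and Cdkn1a in the lower right, that is, with opposite signs in culture and tumor; points beyond the axes are not drawn.

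Klre1 had the largest positive difference of the genes called in both places with opposite signs. It encodes a lectin-like receptor described on natural killer cells. Gene levels are in CPM scaled by TMM, edgeR's library normalisation, and are given for donors 1, 2 and 3 in that order. In culture Klre1 stood at 3.62, 6.38 and 5.94 CPM in MitoPositive and 9.999, 9.40 and 12.5 CPM in MitoNegative samples. Tumor levels were 115, 124 and 112.7 CPM in MitoPositive and 60.1, 36.4 and 32.1 CPM in MitoNegative samples. All MitoPositive samples lay below all MitoNegative ones in culture and above all of them in the tumor. The arm effect was -0.98 ± 0.21 in culture (SE, adjusted p = 0.023) and 1.61 ± 0.19 in the tumor (adjusted p = 0.0020), a difference of 2.59 ± 0.28 (adjusted p = 0.0016). The difference passed in each of 12 fits that left out a sample or a donor, and it was 2.49 without the cells holding other cell types' markers.

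Of 16 killer lectin-like receptor genes 13 were tested, and Klre1 was the member called for the difference. Klrc1, a subunit of the inhibitory receptor for Qa-1, fell in culture by 0.70, with no call in the tumor. Klrd1, its partner chain, had a difference of 0.40 ± 0.15 (adjusted p = 0.21), and Klrk1 of 0.73. Klra5 rose in the tumor by 2.39 (adjusted p = 0.044), but it was near 0 in culture. Over the 9 members with more than 3 UMIs in each group, the median difference was 0.77, with 7 values positive and 2 negative. The same median over all such genes was -0.02. The list of natural killer and gamma delta T cell markers summed to 58.1 to 216 plain CPM in MitoNegative and 87.1 to 97.7 in MitoPositive tumor samples, and its part in these values was not tested.

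St6galnac3, a sialyltransferase, followed the course of Klre1. In culture it stood at 94.1, 100 and 61.8 CPM in MitoPositive against 170, 168 and 176 CPM in MitoNegative samples. In the tumor the values were 155, 145 and 149 against 93.5, 42 and 75.1 CPM. The groups did not overlap in either place and their order was exchanged. The difference was 2.15 ± 0.26 (adjusted p = 0.0023).

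Ms4a4c, a tetraspan membrane protein gene, went from 45.8, 49.5 and 46.9 CPM in MitoPositive against 78.2, 81.0 and 96.6 CPM in MitoNegative culture samples to 99.3, 93.4 and 74.6 against 69.0, 69.6 and 44.5 CPM in the tumor. Its difference was 1.44 ± 0.16 (adjusted p = 0.0016). Ncf1, which encodes a cytosolic subunit of the phagocyte NADPH oxidase, had arm effects of -0.46 in culture and 1.40 in the tumor and a difference of 1.86 ± 0.25 (adjusted p = 0.0049). Its call was lost without tumor replicate 3 (adjusted p = 0.055) and without donor 3 altogether (adjusted p = 0.11). Ugcg, the glucosylceramide synthase, stood at 224, 208 and 211 against 278, 281 and 267 CPM in culture and at 125, 141 and 183 against 102, 98.3 and 117 CPM in the tumor. The 3 genes thus had MitoPositive samples below MitoNegative ones in every donor in culture and above them in every donor in the tumor.

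Airn is an imprinted noncoding RNA that runs antisense to Igf2r. In GENCODE vM21 on GRCm38, Airn lies on the plus strand of chromosome 17 from 12741311 to 12860136, and Igf2r on the minus strand from 12682406 to 12769664, so the 2 genes overlap. How the counting treated strand is not given in the sources used here, and reads of the overlap could in that case belong to either. Airn stood at 233, 192 and 170 CPM in MitoPositive and 327, 271 and 311 CPM in MitoNegative culture samples. Tumor values were 68.1, 73.5 and 114 against 40.1, 40.9 and 50.7 CPM, again with no overlap in either place and the order exchanged. The difference was 1.61 ± 0.21 (adjusted p = 0.0029). Igf2r, the mannose 6-phosphate receptor, had a difference of 0.78 ± 0.26 that did not pass (adjusted p = 0.16).

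**Figure D3:**
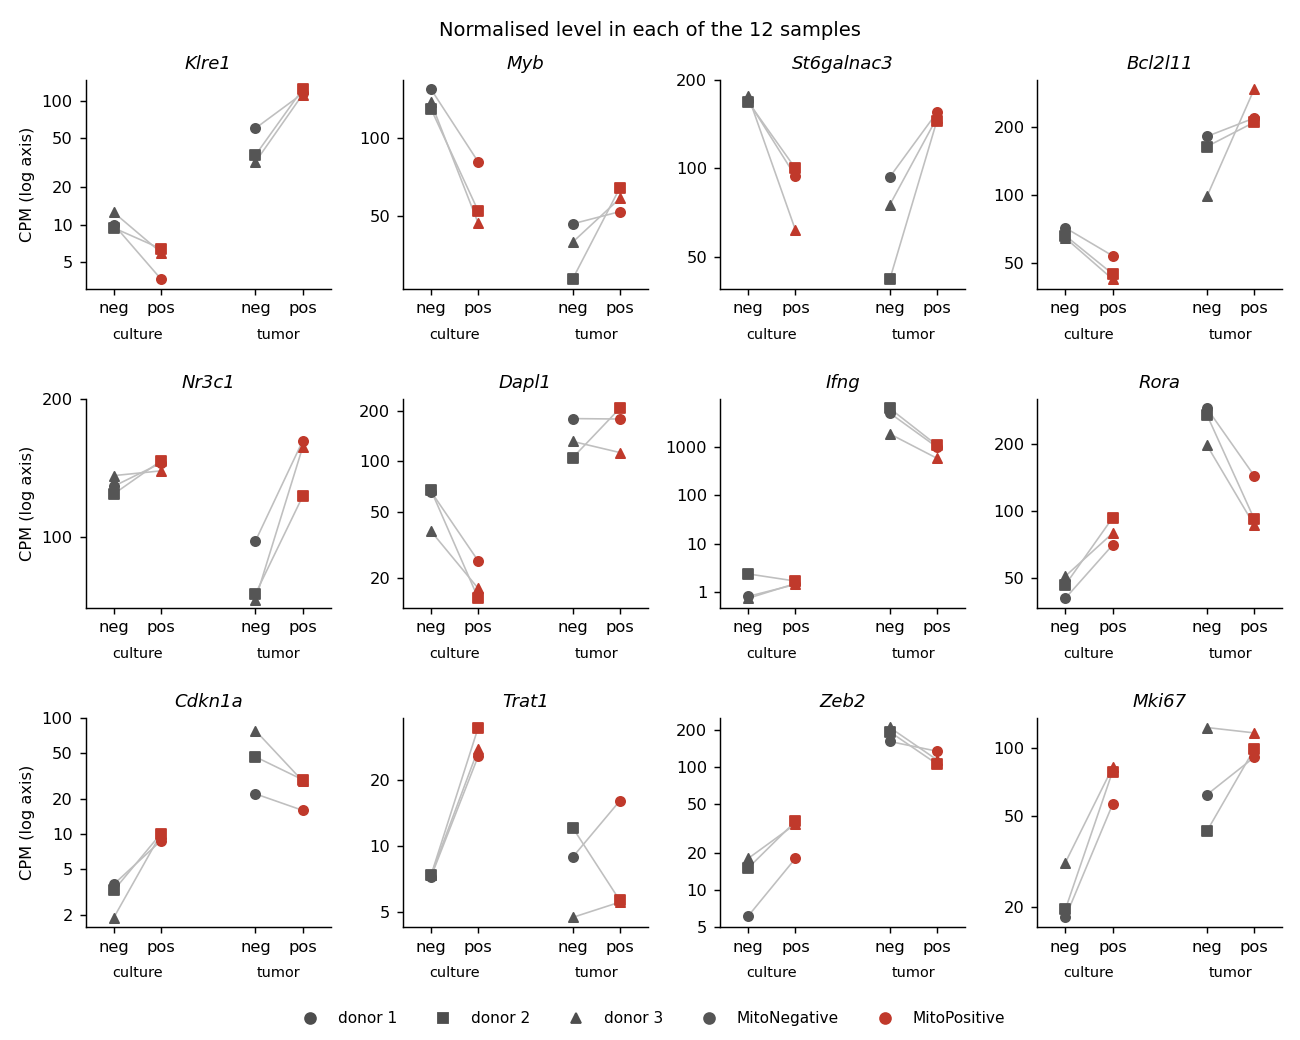
Normalised level (CPM, log axis) of 12 genes in each of the 12 samples; a line joins the MitoNegative (grey) and MitoPositive (red) sample of a donor, and the marker shape gives the donor. The lines of Klre1 and St6galnac3 slope down in culture and up in the tumor in all 3 donors, those of Rora and Cdkn1a slope up and then down, and those of Mki67 in the tumor do not share a direction.

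Rora had the smallest adjusted p for the difference. It encodes a nuclear receptor active in several lymphocyte lineages. Culture levels were 70.0, 92.8 and 79.2 CPM in MitoPositive and 40.3, 46.4 and 50.7 CPM in MitoNegative samples. The tumor showed 144, 91.9 and 86.3 CPM against 289, 271 and 197 CPM. MitoPositive samples were all higher in culture and all lower in the tumor, with no overlap. The arm effects were 0.82 ± 0.13 (adjusted p = 0.0053) and -1.27 ± 0.14 (adjusted p = 0.0012), and the difference was -2.08 ± 0.19 (adjusted p = 4.7e-04). It passed in all 12 fits with a sample or donor left out and was -2.17 without the cells holding other cell types' markers.

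Cdkn1a encodes p21, an inhibitor of cyclin-dependent kinases. It stood at 8.80, 10.1 and 10.1 CPM in MitoPositive and 3.71, 3.29 and 1.92 CPM in MitoNegative culture samples. In the tumor it stood at 16.1, 29.5 and 28.7 against 22.3, 46.4 and 78.0 CPM: the groups overlapped, but the MitoPositive sample was the lower in every donor. The difference was -2.77 ± 0.32 (adjusted p = 0.0016), and -1.93 ± 0.30 (adjusted p = 0.0056) without the cells holding other cell types' markers. Cdkn1a was the member called among 12 cell cycle inhibitor genes. Plcl1, a phospholipase C-like protein gene, reversed as well, from 0.77 in culture to -0.83 in the tumor, a difference of -1.60 ± 0.22 (adjusted p = 0.0066). Gsn, the actin-severing gelsolin, which macrophages also express, had a difference of -1.67, and of -0.43 (adjusted p = 0.74) without the cells holding other cell types' markers.

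Most stem and memory genes had a negative arm effect in culture, and a minority passed as lower. The effect was negative for 18 of the 20 genes, with a median of -0.39 against 0.002 over all genes tested. Of 20 stem and memory genes tested, 2 were called higher for the difference and none lower, against 0.411% and 0.748% of all genes tested. The median difference was 0.42 against -0.01 over all genes tested. In culture 4 of the 20 were called lower and none higher, against 0.945% and 2.63% of all genes tested. In the tumor none of the 20 passed in edgeR (3 at an unadjusted p under 0.05, and 0 called by DESeq2). Myb, a transcription factor that maintains stem-like CD8 T cells, stood at 80.8, 52.4 and 47.0 CPM in MitoPositive and 153, 129 and 136 CPM in MitoNegative culture samples. Tumor levels were 52.1, 64.1 and 58.5 against 46.7, 28.7 and 39.8 CPM. The MitoPositive samples were all lower in culture and all higher in the tumor. The difference was 1.88 ± 0.30 (adjusted p = 0.015), and it missed the threshold in 1 of 12 fits, that without culture MitoPositive replicate 2 (adjusted p = 0.064).

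Dapl1, a gene of resting and memory CD8 T cells, stood at 25.4, 15.2 and 17.4 against 66.0, 67.2 and 38.2 CPM in culture. The tumor values of 179, 207 and 112.9 against 180, 105 and 132 CPM overlapped. The difference was 1.79 ± 0.36 (adjusted p = 0.034), called in 5 of the 12 fits that left out a sample or donor, where it ran from 1.23 to 2.29. Klf2, a regulator of T cell trafficking, had a culture effect of -1.71 ± 0.35 (adjusted p = 0.016) and a tumor effect of -0.33 ± 0.45. Its difference of 1.38 ± 0.56 did not pass (adjusted p = 0.25), and was positive in each donor. Tcf7, the central transcription factor of memory CD8 T cells, had a difference of 0.53 ± 0.27 (adjusted p = 0.37), with tumor levels of 75.5, 59.4 and 61.6 against 55.6, 81.7 and 38.3 CPM.

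Further genes with a positive difference encode receptors and signalling proteins. Calcrl, the receptor chain for adrenomedullin and calcitonin gene-related peptide, had tumor levels of 9.54, 13.2 and 12.8 against 4.45, 2.21 and 3.65 CPM and a difference of 1.83 ± 0.35. Its MitoNegative tumor levels rested on 2, 2 and 10 UMIs. Il10ra, the interleukin 10 receptor alpha chain, stood at 37.7, 36.3 and 32.5 against 20.03, 14.4 and 18.6 CPM in the tumor and at 28.1, 23.2 and 24.2 against 28.7, 29.0 and 33.8 CPM in culture, with a difference of 1.24 ± 0.21. Nr3c1, the glucocorticoid receptor, had tumor levels of 162, 123 and 157 against 97.9, 75.1 and 72.9 CPM and culture levels of 145, 147 and 139 against 129, 124 and 136 CPM. The tumor groups of these receptors did not overlap, and MitoPositive samples were the higher. The difference of Nr3c1 was 0.74 ± 0.15 (adjusted p = 0.034), and its adjusted p was 0.056 with the donor as a block. Of 28 cytokine receptor and feedback genes 1 was called higher (Il10ra) and 1 lower (Il12rb1), and of 9 glucocorticoid axis genes 1 was called higher (Nr3c1).

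The signalling genes included Pde2a, a cyclic nucleotide phosphodiesterase (2.82 ± 0.60), Matk, a kinase that restrains Src kinases (1.76 ± 0.35), Unc5cl, a death domain protein (2.34 ± 0.45), and Samd3 (2.50 ± 0.45). Pde2a, Unc5cl and Samd3 had passed in culture alone, where the MitoPositive samples were lower in every donor. Unc5cl rested on 1, 0 and 5 UMIs in the MitoNegative tumor samples, and Pde2a on 4, 6 and 1. Without donor 3 the difference of Pde2a was 1.64 (adjusted p = 0.22) and that of Samd3 1.65 (adjusted p = 0.054). With the donor as a block Unc5cl (adjusted p = 0.051) and Matk (adjusted p = 0.062) did not pass. Fam71b (1.68) and Tmsb15b2, a beta thymosin gene (1.73), completed the positive genes named for size. In the MitoNegative tumor samples Fam71b rested on 3, 4 and 13 UMIs and Tmsb15b2 on 3, 6 and 11. Tnfsf10, which encodes the death ligand TRAIL, had a difference of 0.92 ± 0.20 and was the called member of 15 cytotoxic effector genes. Gbp5, an interferon-induced GTPase, had 1.22 ± 0.26 and was the called member of 25 interferon gamma response genes. Gbp5 did not pass with the donor as a block (adjusted p = 0.063), and it was 0.77 without donor 3. Without the cells holding other cell types' markers Unc5cl (1.87, adjusted p = 0.067), Tnfsf10 (0.62, adjusted p = 0.13) and Gbp5 (0.82, adjusted p = 0.24) did not pass.

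**Figure D4:**
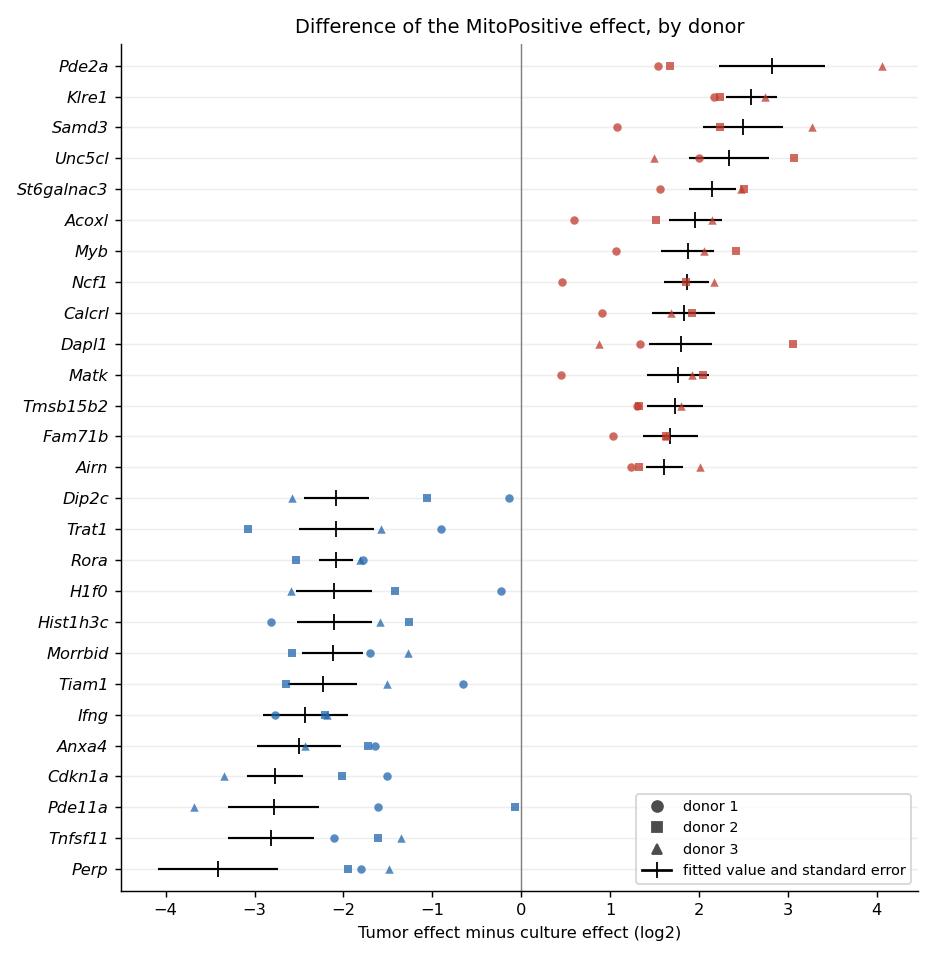
The difference of the arm effect (log2, tumor minus culture, horizontal) of the 14 genes named for the largest positive and the 13 named for the largest negative value; symbols are the 3 donors, from log2(CPM + 1), and the black bar is the fitted value with its standard error. Every symbol lies on the side of its fitted value, which the rule for naming these genes required. The symbols of Dip2c and Pde11a reach close to 0 in 1 donor.

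A set of 3 neighbouring genes on chromosome 2 was named by the rule without regard to position. Acoxl (127838876 to 128123873), Bcl2l11 (128126038 to 128162547) and Morrbid (128178319 to 128502765) follow one another in GENCODE vM21 on GRCm38, with gaps of 2.17 kb and 15.8 kb. Bcl2l11 encodes BIM, a protein that triggers apoptosis, and Morrbid is a noncoding RNA known to repress it in cis in short-lived immune cells. Morrbid stood at 7.12, 8.47 and 7.15 against 2.58, 2.82 and 2.51 CPM in culture and at 33.8, 34.7 and 44.2 against 49.0, 85.0 and 46.0 CPM in the tumor. MitoPositive samples were thus higher for Morrbid in culture and lower in the tumor, with no overlap in either place. The arm effect was 1.52 ± 0.28 in culture (adjusted p = 0.0093). In the tumor it was -0.60 ± 0.20 and did not pass (adjusted p = 0.15). The difference was -2.12 ± 0.34 (adjusted p = 0.018).

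Bcl2l11 moved the other way. It stood at 54.0, 44.8 and 42.5 against 71.8, 66.3 and 64.7 CPM in culture and at 220, 211 and 295 against 182, 165 and 98.8 CPM in the tumor, again with no overlap. Its difference was 1.34 ± 0.28 (adjusted p = 0.036, and 0.058 with the donor as a block). Acoxl, an acyl-CoA oxidase-like gene, stood at 15.2, 28.7 and 47.2 against 11.1, 9.94 and 10.2 CPM in the tumor, with a difference of 1.96 ± 0.30 (adjusted p = 0.013). In culture its groups overlapped. Among the 12 fits that left out a sample or donor, Acoxl passed in 9, Morrbid in 7 and Bcl2l11 in 5, the last with a value of 0.81 without donor 3. Without the cells holding other cell types' markers all 3 passed, at 1.80, -2.03 and 1.29 for Acoxl, Morrbid and Bcl2l11. Bcl2l11 was the called member of 19 apoptosis and survival genes, and its arm effect alone passed neither in culture nor in the tumor.

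Ifng, Il2 and Lta RNA was lower in the MitoPositive arm in the tumor, where all 3 stood above their culture levels. Ifng, which encodes interferon gamma, stood at 981, 1074 and 578 CPM in MitoPositive and 4979, 6216 and 1845 CPM in MitoNegative tumor samples. The MitoPositive samples all lay below the MitoNegative ones. The tumor effect was -2.18 ± 0.16 (adjusted p = 5.1e-05), the smallest adjusted p reported here for that contrast. In culture Ifng gave 5 to 16 UMIs per sample, or 0.737 to 2.35 CPM, with overlapping groups and an effect of 0.24 ± 0.45. The difference of -2.43 ± 0.48 passed (adjusted p = 0.034), but it was called in 5 of 12 fits with a sample or donor left out. Over those fits it ran from -3.16 to -2.13, with the largest adjusted p, 0.19, without donor 1.

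Of 13 cytokine genes 10 were tested, and Ifng and Lta were called lower for the difference, against 0.748% of all genes tested. Lta, lymphotoxin alpha, stood at 20.8, 18.2 and 10.7 against 33.4, 36.4 and 39.0 CPM in the tumor and at 9.32, 8.36 and 7.80 against 6.77, 7.21 and 6.78 CPM in culture. Its difference was -1.62 ± 0.29 (adjusted p = 0.025). Il2 fell in the tumor by 1.67, from 131, 166 and 65.3 CPM in MitoNegative to 50.3, 62.5 and 14.5 CPM in MitoPositive samples. With 2 to 10 UMIs per culture sample its difference of -1.33 ± 0.62 did not pass (adjusted p = 0.32). Ltb, a membrane lymphotoxin chain, rose in the tumor by 0.53. The 7 cytokine genes with more than 3 UMIs in each group had a median difference of -1.33, with 4 values negative and 3 positive.

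Among 7 tested chemokine genes none passed for the difference by edgeR, where 2 had an unadjusted p under 0.05. Ccl4, a chemokine that attracts T cells and monocytes, stood at 1107, 619 and 503 against 3327, 3391 and 939 CPM in the tumor, where it fell by 1.65, and its difference of -1.62 ± 0.42 did not pass (adjusted p = 0.081). Ccl3, a related inflammatory chemokine, stood at 407, 385 and 212 against 830, 2173 and 484 CPM in the tumor, where it fell by 1.59. Its culture samples held 0 to 2 UMIs, so no difference is given. Cd200, which encodes the ligand of an inhibitory receptor, was lower in the tumor at 91.5, 83.4 and 26.3 against 214, 148 and 92.3 CPM, with a difference of -1.32 ± 0.27 (adjusted p = 0.034). It was the member called among 17 inhibitory receptor and exhaustion genes. Pdcd1, the PD-1 receptor gene, had tumor levels of 136, 165 and 149 against 136, 179 and 135 CPM and a difference of -1.20 ± 0.39 that did not pass (adjusted p = 0.15).

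Most effector transcription factors and surface genes had a positive arm effect in culture, 13 of 14 with a median of 0.51 over the list. Over all genes tested 6130 of 12168 were positive there, with a median of 0.002. Of 14 tested genes of this list 3 were called lower for the difference (Zeb2, Irf4 and Batf3) and none higher. The shares over all genes tested were 0.748% and 0.411%. In culture 4 had been called higher, against 2.63% of all genes tested. In the tumor none of the list passed by edgeR (5 at an unadjusted p under 0.05, 1 called lower by DESeq2 and 2 called lower with the donor as a block). Zeb2, which drives terminal effector differentiation, stood at 18, 36.0 and 34.2 against 6.13, 15 and 18 CPM in culture. In the tumor it stood at 134, 105 and 114 against 160, 192 and 208 CPM. The difference was -1.90 ± 0.40 (adjusted p = 0.040), and 3 of the 12 fits with a sample or donor left out called it, at values from -2.19 to -1.57. Batf3 had arm effects of 1.59 ± 0.35 in culture and -2.11 ± 0.50 in the tumor, the latter short of the threshold (adjusted p = 0.056), and a difference of -3.69 ± 0.62 (adjusted p = 0.022). Irf4, a factor induced by T cell receptor signalling, had a difference of -1.22 ± 0.27 (adjusted p = 0.049, and 0.083 with the donor as a block). Gzmb, granzyme B, had -1.49 ± 0.41 (adjusted p = 0.093, and 0.027 with the donor as a block), whereas Gzmc had 0.52 ± 0.94 on 0 to 9 UMIs per culture sample.

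Other genes with a negative difference came from signalling and the surface. Tnfsf11, which encodes RANKL, stood at 186, 178 and 128 against 332, 184 and 175 CPM in the tumor and at 2.20, 3.35 and 1.95 against 0.323, 0.470 and 0.590 CPM in culture. Its difference was -2.81 ± 0.48 (adjusted p = 0.023). Trat1, an adaptor of the T cell receptor, stood at 25.6, 34.6 and 27.6 against 7.26, 7.36 and 7.37 CPM in culture, and its tumor groups overlapped. Tiam1, an activator of the GTPase Rac, had 2.02 ± 0.31 in culture and -0.21 ± 0.23 in the tumor. The difference was -2.08 ± 0.42 for Trat1 and -2.23 ± 0.39 for Tiam1, and both had passed in culture alone. Trat1 was at -1.37 without donor 2 (adjusted p = 0.15). Il12rb1, a chain of the interleukin 12 receptor, had -1.93 ± 0.41 and passed in 0 of the 12 fits with a sample or donor left out, at values from -2.28 to -1.45. Perp, a p53 target of the plasma membrane, had -3.41 ± 0.68 and gave 22 UMIs in MitoPositive and 3 in MitoNegative culture samples, a ratio of 4.91 with a 95% exact binomial interval of 1.47 to 25.6 that covers counting error only. Perp did not pass without the cells holding other cell types' markers (-2.86, adjusted p = 0.11).

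AI506816 and Rad51b were called higher in culture and not called in the tumor. AI506816 stood at 85.2, 87.2 and 86.3 against 21.4, 24.6 and 27.6 CPM in culture and at 144, 156 and 173 against 122, 142 and 123 CPM in the tumor. MitoPositive samples were the higher in both places, with no overlap. The arm effect was 1.81 ± 0.11 in culture and 0.31 ± 0.11 in the tumor, a difference of -1.50 ± 0.16 (adjusted p = 0.0014) that passed in all 12 fits with a sample or donor left out. Rad51b, a DNA repair gene, went from 1.93 ± 0.21 to 0.03 ± 0.19. The 3 genes with the smallest adjusted p among those called in the tumor alone were Trerf1, a transcriptional regulator (-1.66 ± 0.21), Ccdc88a, which encodes girdin (-4.49 ± 0.53), and Cacnb3, a calcium channel subunit (-4.39 ± 0.53). Ccdc88a rested on 1 to 44 UMIs per tumor sample. All 3 passed in each of the 12 fits, but none did without the cells holding other cell types' markers, where the difference was -1.20 for Trerf1 (adjusted p = 0.067), -2.94 for Ccdc88a (adjusted p = 0.14) and -2.42 for Cacnb3 (adjusted p = 0.18).

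Cell cycle RNA was higher in the MitoPositive arm in culture and had no shared direction over the donors in the tumor. Of 30 G2/M genes 25 were called higher in culture and none lower, with 29 values positive, 1 negative and a median effect of 1.58. Over all genes tested 2.63% were called higher in culture, and the median was 0.002. No G2/M gene passed in the tumor by edgeR (2 at an unadjusted p under 0.05, and 0 called by DESeq2), where the median was -0.04. For the difference 1 was called lower, against 0.748% of all genes tested: Aurka, a mitotic kinase (-2.17 ± 0.46, adjusted p = 0.040). With the donor as a block 4 were called. Aurka itself was at -1.86 (adjusted p = 0.055) without the cells holding other cell types' markers. The difference had a negative value for 29 of the 30, with a median of -1.51, against -0.01 over all genes tested. Mki67, a marker of dividing cells, stood at 56.4, 78.8 and 82.2 against 17.9, 19.4 and 31.3 CPM in culture. The tumor values of 91.1, 98.9 and 117 against 62.3, 43.1 and 123 CPM overlapped. Its difference of -1.27 ± 0.34 did not pass (adjusted p = 0.090).

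In the tumor the donors went different ways. The MitoPositive value was the higher for 20 of the 30 G2/M genes in donor 1, for 27 in donor 2 and for 3 in donor 3. In culture it was the higher for 29 of 30 in each donor. Smc4, a condensin subunit gene, ran the other way in culture. It alone stood at 905, 797 and 620 plain CPM in MitoPositive and 1264, 1147 and 993 in MitoNegative samples. With Smc4 the G2/M genes summed to 1810, 2038 and 2037 against 1617, 1587 and 1592.5 plain CPM in culture. Summed without Smc4, the G2/M genes stood at 905, 1240 and 1416 plain CPM in MitoPositive and 354, 440 and 600 in MitoNegative culture samples. In the tumor they stood at 1445, 1686 and 1774 against 1196, 1038 and 2294. The MitoNegative tumor sample of donor 3 was the highest of all 12 samples, and it is the sample with melanoma RNA. Without the cells holding other cell types' markers the median difference was -1.60 and 12 of the 30 genes were called lower. Without tumor replicate 3 the median difference was -0.70 and the tumor median 0.76, and without tumor replicate 2 the difference was called lower for 20 genes and higher for 1.

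Of 30 S phase genes 14 rose in culture, and the median difference was -0.54. None of them passed in the tumor or for the difference in edgeR, with 1 and 12 at an unadjusted p under 0.05 and 0 and 2 called by DESeq2. Of 15 replication histone genes 12 rose in culture, and Hist1h3c (-2.10 ± 0.42) and Hist1h2ab (-1.86 ± 0.41) were called lower for the difference, with all 15 values negative and a median of -1.16. Over all genes tested 6160 of 12168 differences were negative and 0.748% were called lower. In culture 2.63% of all genes tested were called higher. Hist1h3c did not pass with the donor as a block (adjusted p = 0.053). These histone genes are near-identical copies, and reads could be split among them. H1f0, a linker histone of non-dividing cells, had -2.10 ± 0.43. Its level was 43.0 CPM in the MitoNegative tumor sample of donor 3, which holds melanoma RNA, and 6.68 and 16.6 CPM in those of donors 1 and 2. Without tumor replicate 3 it was at -1.09 (adjusted p = 0.48), and without the cells holding other cell types' markers at -0.80 (adjusted p = 0.41). Ccnd2, cyclin D2, had -0.70 ± 0.14, and its arms did not overlap in either place. Without those cells it was at -0.50 (adjusted p = 0.097).

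**Figure D5:**
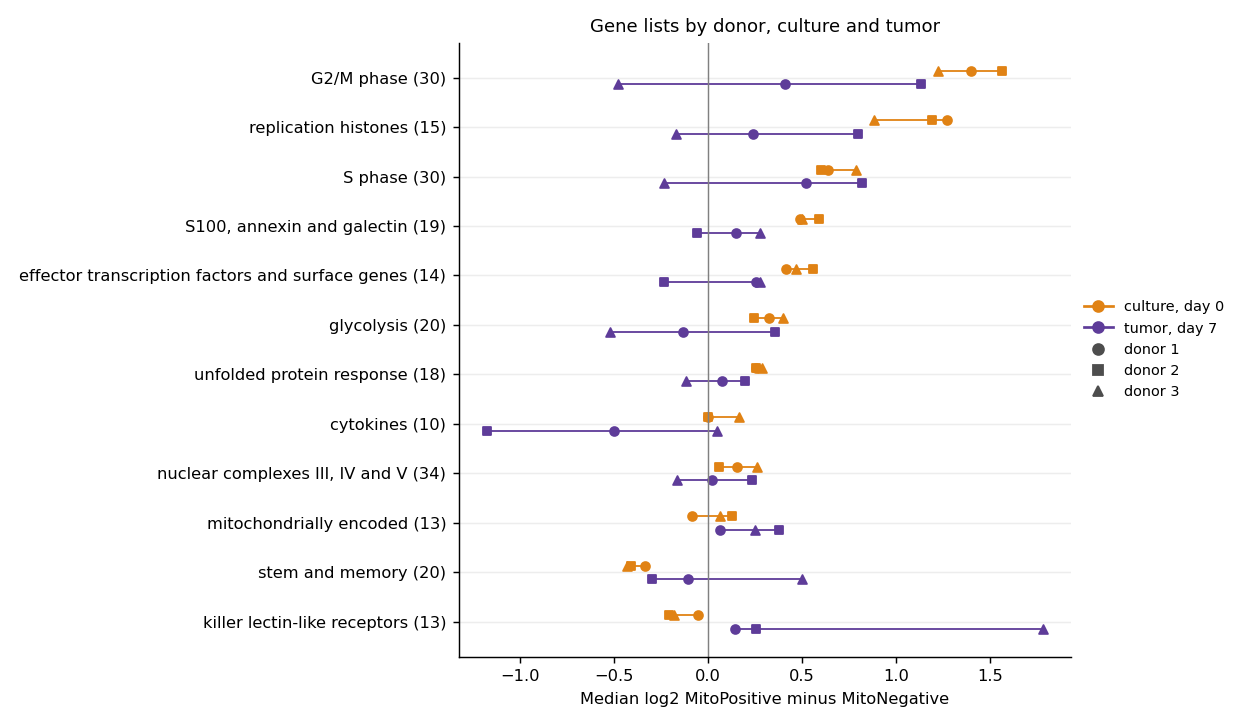
Median over each gene list of the arm effect, MitoPositive minus MitoNegative on the log2(CPM + 1) scale, per donor in culture (orange) and in the tumor (purple); the number of tested genes stands in brackets, and a line spans the 3 donors. The culture medians of the G2/M list lie between 1.22 and 1.56, and its tumor medians between -0.48 in donor 3 and 1.13 in donor 2.

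Of 19 S100, annexin and galectin genes 9 rose in culture, against 2.63% of all genes tested. In the tumor none passed in edgeR (6 at an unadjusted p under 0.05, 2 called higher by DESeq2 and 1 with the donor as a block). Anxa4 (-2.50 ± 0.47) and Vim (-1.09 ± 0.21) were called lower for the difference, against 4 called genes with the donor as a block. Over all genes tested 0.748% were called lower for the difference. Vim, the intermediate filament of mesenchymal and activated cells, stood at 476, 523 and 669 against 229, 283 and 339 CPM in culture and at 524, 588 and 620 against 501, 622 and 768 CPM in the tumor. Anxa4 did not pass without the cells holding other cell types' markers (-1.50, adjusted p = 0.11). Of 20 glycolysis genes, Hk2, which encodes a hexokinase, was called lower at -1.53 ± 0.25. Its tumor levels were 135, 128 and 128 against 196, 134 and 217 CPM. Asns, asparagine synthetase and a target of the integrated stress response, had -1.58 ± 0.34, and Xbp1, a factor of the unfolded protein response, had -0.72 ± 0.16. Each of them was the 1 called member of its list, of 18 tested genes in both cases. Asns did not pass without the cells holding other cell types' markers (-1.28, adjusted p = 0.10), and Xbp1 passed in 0 of the 12 fits with a sample or donor left out.

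All 13 mitochondrially encoded genes had a positive difference, with a median of 0.23, against 6008 of 12168 positive and a median of -0.007 over all genes tested. None of the 13 passed in edgeR (3 at an unadjusted p under 0.05, and 2 called by DESeq2). Their share of UMIs was 2.68%, 2.72% and 2.65% in MitoPositive and 2.67%, 2.40% and 2.54% in MitoNegative culture samples. In the tumor it was 2.22%, 2.12% and 2.07% against 2.08%, 1.70% and 1.77%, with the MitoPositive sample higher in every donor. In culture the 2 shares of donor 1 were nearly equal. With TMM scaling the 13 genes had a median culture effect of -0.019, with 6 values positive and 7 negative. Their median tumor effect was 0.24, with all 13 values positive, against 6512 of 12168 over all genes tested. These values include the cells holding other cell types' markers. The counts do not separate transcripts of the T cell's own mitochondria from those of the donor stroma. mt-Co1, a subunit of cytochrome oxidase, had a difference of 0.07 ± 0.13 (adjusted p = 0.84). Of 37 nuclear complex I genes and 34 nuclear genes of complexes III, IV and V none passed in culture, in the tumor or for the difference by edgeR, and the median differences were -0.15 and -0.16. For the difference 4 and 5 of them had an unadjusted p under 0.05.

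Calls in both directions were lost when the cells holding other cell types' markers were left out. That step also took the MitoNegative tumor samples from 30, 85 and 116 cells to 25, 65 and 91. The cause of the losses was not tested. Of the 91 lower genes 50 were called again without the cells holding other cell types' markers, and of the 50 higher genes 40. In that fit 8 of the 91 had the opposite sign, among them Dip2c (-2.08 in the full set, 0.0034 without those cells) and Mitf, the melanocyte transcription factor (-3.40 and 0.0082). Mitf stood at 48.9 CPM in the MitoNegative tumor sample of donor 3 and at 0 to 4.42 CPM in the other tumor samples. Pde11a, a phosphodiesterase, stood at 71.8 CPM in that sample and had -0.92 (adjusted p = 0.33) without those cells. Without tumor replicate 3 the differences were -0.73 for Dip2c, -0.90 for Mitf and -0.78 for Pde11a, none of them called in edgeR. Ctsz and Cst3, genes of lysosomal proteases and their inhibitors, were called lower and were not called there (adjusted p = 0.069 and 0.56). Trdc and Sestd1 were called again without those cells, at -2.10 (adjusted p = 0.0093) and -3.33 (adjusted p = 0.019). In the full set Trdc, the constant region of the T cell receptor delta chain, had -1.73 ± 0.38, with tumor levels of 20.8, 30.4 and 14 against 64.5, 85.0 and 12.8 CPM. Sestd1 had -3.34 ± 0.67 on 1 to 18 UMIs per culture sample, and did not pass with the donor as a block (adjusted p = 0.053).

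The number of called genes depended on single samples. Without culture MitoPositive replicate 2 the count fell from 141 to 13, without culture MitoNegative replicates 1, 2 and 3 to 23, 19 and 42, and without culture MitoPositive replicate 3 to 30. Leaving out all 4 samples of donor 1 gave 24 and of donor 3 gave 49. Without tumor replicate 3 it was 49, and without tumor replicate 2 it was 831. Of the 141, 136 to 141 had the same sign in each of these 12 fits, where 138 to 141 were tested. The genes called in every one of the 12 among those named here were Klre1, St6galnac3, Airn, Ms4a4c, Rora, Cdkn1a, AI506816, Ccdc88a, Cacnb3 and Trerf1. Il12rb1 and Xbp1 passed in 0 of the 12 and Hist1h2ab in 1. Those passing in 2 were Sestd1, Perp, Gbp5, Asns, Irf4, Matk, Trdc, Trat1, Tnfsf10 and Unc5cl. Zeb2, Pde2a, Nr3c1, Ccnd2, Aurka, Anxa4, Calcrl, Cd200 and Hist1h3c passed in 3, and Il10ra, Mitf, Vim, Tiam1, Tmsb15b2, Pde11a, Fam71b, H1f0, Lta and Dip2c in 4. Dapl1, Ifng and Bcl2l11 passed in 5, Hk2, Tnfsf11 and Samd3 in 6, and Batf3, Morrbid, Rad51b, Acoxl, Ncf1 and Myb in 7 to 11.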

How the data were processed

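Single-cell RNA and hashtag libraries (Chromium 3' v3.1) were deposited by the authors as matrices of UMI counts, not normalised and not split by hashtag. Cell Ranger 7.0.0, Seurat 4.0.5 and the builds mm10 and GRCm38 are listed, per the submitters' processing notes. Barcodes with at least 500 genes, under 15% mitochondrial UMIs and a top hashtag of at least 10 UMIs and 3 times the next were kept. The hashtag ratio removes doublets of different samples only, and no doublet caller was run. Counts were summed per sample for 12 samples. They were tested with edgeR 4.0.16 in R 4.3.3 (filterByExpr, TMM, quasi-likelihood test, Benjamini-Hochberg over 12168 genes, threshold 0.05). The model had 1 level for culture, 1 per tumor library and an arm effect in each place. SE came from the F statistic.

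Members and the 45 gene lists were chosen with earlier results of these data known. The genes named were the 14 largest in each direction (1 is not reported here) with a mean of at least 10 CPM and 1 sign in 3 donors, at most 6 called members per list, 3 per kind of origin, and 12 set genes. Genes singled out beyond this (Ugcg, Plcl1, Gsn, Igf2r, Ctsz, Cst3 and list members not called) were chosen after their values were seen.

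Donors pair the arms by the deposited list. Deviations of samples of 1 donor correlated at 0.07 to 0.28 in culture and at -0.07 to 0.12 in the tumor. On simulated counts of 12063 genes, 45% of 2-fold and 77% of 4-fold differences were recovered, with 10 unchanged genes called. Apart from the set differences, that simulation gave all samples of a day the same mean. It held no donor differences, no arm effect in culture and no RNA of other cells in single samples. Its rates therefore cannot be carried over to the real counts. P-values rest on 1 estimate of spread per gene over all 12 samples. In culture it draws on the spread between the 3 samples of an arm, as the model did not pair donors there. In the tumor it draws on the spread of the arm gap between the 3 donors, whose arms lay in different recipient mice.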

Additional observations from a re-analysis of the deposited data

Results flagged for a closer look

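The arm effect, MitoPositive minus MitoNegative, differed between culture and tumor for 141 genes by a direct test of that difference (edgeR's quasi-likelihood test, Benjamini-Hochberg adjusted), and each value here is that log2 difference, tumor minus culture, for a named gene.

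Values above 0 were those of Nr3c1 0.74, Tnfsf10 0.92, Gbp5 1.22, Il10ra 1.24, Bcl2l11 1.34, Ms4a4c 1.44, Airn 1.61, Fam71b 1.68, Tmsb15b2 1.73, Matk 1.76, Dapl1 1.79, Calcrl 1.83, Ncf1 1.86, Myb 1.88, Acoxl 1.96, St6galnac3 2.15, Unc5cl 2.34, Samd3 2.50, Klre1 2.59 and Pde2a 2.82.

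Values below 0 in effector, signalling and surface genes were those of Batf3 -3.69, Perp -3.41, Tnfsf11 -2.81, Ifng -2.43, Tiam1 -2.23, Rora -2.08, Trat1 -2.08, Il12rb1 -1.93, Zeb2 -1.90, Trdc -1.73, Trerf1 -1.66, Lta -1.62, Cd200 -1.32 and Irf4 -1.22. Those of cell cycle, histone and repair genes were Cdkn1a -2.77, Aurka -2.17, Hist1h3c -2.10, H1f0 -2.10, Rad51b -1.91, Hist1h2ab -1.86 and Ccnd2 -0.70. The remaining values were Ccdc88a -4.49, Cacnb3 -4.39, Mitf -3.40, Sestd1 -3.34, Pde11a -2.78, Anxa4 -2.50, Morrbid -2.12, Dip2c -2.08, Asns -1.58, Hk2 -1.53, AI506816 -1.50, Vim -1.09 and Xbp1 -0.72. Part of the genes in this section were not called without the cells holding other cell types' markers. Among the higher genes these were Tnfsf10, Gbp5 and Unc5cl. Among the lower ones they were Perp, Trerf1, Aurka, H1f0, Ccnd2, Ccdc88a, Cacnb3, Pde11a, Anxa4 and Asns, and also Mitf (0.0082) and Dip2c (0.0034), which changed sign.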

How the results depend on the processing

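The 141 genes called for the difference had the same sign under DESeq2's size factors, DESeq2's test, no count filter, a robust fit, either use of a replicate block and all 18 samples in 1 fit. DESeq2 called 264 genes, and no filter gave 858 for the difference, 1127 in the tumor and 1001 in culture. With all 18 samples the tumor count was 350. The replicate block at both times gave 133 genes for the difference, 104 of them among the 141, and moved the tumor count from 199 to 115. The named genes whose call it changed stand with their results. With the other culture hashtag map the counts were 0, 29 and 0 (difference, tumor, culture), and Mki67 (0.25), Klf2 (-0.37), Gzmb (0.20) and Pdcd1 (0.11) changed sign.

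Without cells holding 5 UMIs of macrophage and melanoma lists the difference and tumor counts were 92 and 126, and Gzmc (-0.13) changed sign. Cells thinned to 3000 UMIs gave 66 and 91, with Gzmc at -0.18. Thinned cells under 3 G2/M UMIs gave 85 for the difference and 69 in culture. That limit counts Smc4 and left out 60.7% to 69.3% of thinned MitoNegative and 47.4% to 60.6% of thinned MitoPositive culture cells. Equal cell numbers gave 7, 11 and 12 (difference, tumor, culture), with Pde11a 0.26, Dip2c 1.93, Tnfsf10 -0.15, Trdc 0.70, Gzmc -0.72, Ccl4 1.11, Pdcd1 0.22 and mt-Co1 -0.038. The alternatives chosen after seeing the data gave 228, 80 and 714 without cells of 2 other-cell marker UMIs, with Dip2c 0.0034, Mitf 0.0082 and Gzmc -0.20. Thinned cells under 2 G2/M UMIs other than Smc4 gave 242 in culture, with H1f0 0.69, Mki67 0.17 and mt-Co1 -0.00514. This limit left out 10.6% to 13.7% of thinned MitoNegative and 16.4% to 21.0% of thinned MitoPositive culture cells. The cause of these changes was not tested, except that equal numbers keep fewer cells.

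Leaving out a sample or donor moved the counts to between 13 and 831 for the difference, 79 and 689 in the tumor and 48 and 801 in culture. Gzmc ran from -1.81 (without culture MitoNegative replicate 2) to 1.36 (without donor 3), with -1.42 without donor 2. The 30 cells and 496485 UMIs of the smallest tumor sample limit low genes.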
